A study of Mus musculus with 9 samples.

Results

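Transcripts of 10 genes of the NRF2 antioxidant pathway were examined in bulk RNA sequencing of mouse kidney: Nfe2l2, Keap1, Nqo1, Gclc, Gclm, Srxn1, Txnrd1, Prdx1, G6pdx and Sqstm1. The genes were chosen by name, as known members of the pathway, from the 26139 gene symbols of the expression table, and all 10 were present. Earlier results of these data were known at that choice, so shares set beside those of all genes are no test of the set. There were 3 groups of 3 libraries. The GQYS group consisted of Itgam-IRES-hCD89 mice given Gui-qi-yi-shen (GQYS) granules, a herbal medicine, by daily gavage over 5 months. The IgAN group consisted of Itgam-IRES-hCD89 mice and the WT group of wild-type C57/BL6 mice. For both of these groups the treatment label says gavage with saline, while the sample titles say untreated, so whether GQYS and IgAN mice differ also in being gavaged is not settled. The knock-in allele, which GQYS and IgAN mice share, places human CD89, an Fc receptor for IgA, behind an internal ribosome entry site in Itgam, which encodes CD11b of myeloid cells, so that CD89 is made in cells that express Itgam. The line serves as a model of IgA nephropathy, in which IgA is deposited in glomeruli. The labels give no age or sex. Whether replicate libraries stem from different mice is also not stated, and p-values therefore reflect only library-to-library spread, part of which may be technical.

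NRF2, the product of Nfe2l2, is a transcription factor that is held at a low level in unstressed cells by KEAP1, an adaptor that presents it to a CUL3 ubiquitin ligase for degradation. Oxidants and electrophiles modify cysteines of KEAP1, NRF2 then accumulates, pairs with a small MAF protein and binds antioxidant response elements near its targets. The targets make glutathione, recycle thioredoxin, supply NADPH and detoxify quinones, and in the kidney the pathway is best known for protecting tubule cells from oxidative injury. Because NRF2 is controlled mainly through the stability of the protein, the transcripts of its targets are a common readout of its activity, whereas the transcript of Nfe2l2 is not a direct one.

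The promoters of these genes are shown because the response element is the feature the pathway is defined by. RefSeq promoter windows of the build GRCm38.p6, each from 250 bases before to 50 bases after an annotated start, were matched by symbol for 9 of the 10 genes, 11 windows in all, of which Txnrd1 had 3. The core of the antioxidant response element, TGACNNNGC, was searched on both strands and occurred in 6 windows, 1 each of Nfe2l2, Gclm, Srxn1, Txnrd1, Prdx1 and G6pdx. Of all 32851 windows of that length, 12.4% held the core. The windows of Nqo1, Keap1 and Sqstm1 did not hold these letters, which says nothing of elements outside the window. A match is a description of the letters and no evidence of binding. The core read on the window's own strand in Nfe2l2 and on the opposite strand in the other 5. Positions are those of the 5′-most base of the match on the gene's strand. That base lay 240 bases before the start in Nfe2l2, 134 in Gclm, 133 in Prdx1, 92 in Txnrd1 and 57 in G6pdx. In Srxn1 it lay 29 bases after the start. In Prdx1 it overlapped 1 of 2 matches to the AP-1 motif TGANTCA, which 7.81% of all windows held. The other match of Prdx1 and both AP-1 matches in the Srxn1 window did not overlap the core. The windows of the 5 enzymes with a match follow, 5′ to 3′ on the gene's strand, with the letters of the core match in capitals.
Gclm: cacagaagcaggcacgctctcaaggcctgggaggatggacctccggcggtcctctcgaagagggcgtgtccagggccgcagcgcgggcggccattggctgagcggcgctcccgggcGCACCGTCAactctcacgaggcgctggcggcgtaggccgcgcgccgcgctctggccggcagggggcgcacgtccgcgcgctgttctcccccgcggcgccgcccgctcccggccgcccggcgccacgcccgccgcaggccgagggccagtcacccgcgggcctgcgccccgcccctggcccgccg
Srxn1: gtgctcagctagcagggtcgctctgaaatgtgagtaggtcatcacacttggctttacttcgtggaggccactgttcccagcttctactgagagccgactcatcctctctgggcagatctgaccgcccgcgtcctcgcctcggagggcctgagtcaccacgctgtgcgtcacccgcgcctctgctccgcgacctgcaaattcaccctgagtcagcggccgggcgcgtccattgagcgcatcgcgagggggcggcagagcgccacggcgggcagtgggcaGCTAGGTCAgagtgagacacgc
Txnrd1: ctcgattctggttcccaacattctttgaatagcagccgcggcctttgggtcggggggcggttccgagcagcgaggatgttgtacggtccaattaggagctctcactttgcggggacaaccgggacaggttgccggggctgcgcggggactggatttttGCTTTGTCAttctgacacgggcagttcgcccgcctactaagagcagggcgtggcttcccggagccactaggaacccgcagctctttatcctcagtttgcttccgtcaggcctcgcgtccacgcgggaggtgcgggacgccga
Prdx1: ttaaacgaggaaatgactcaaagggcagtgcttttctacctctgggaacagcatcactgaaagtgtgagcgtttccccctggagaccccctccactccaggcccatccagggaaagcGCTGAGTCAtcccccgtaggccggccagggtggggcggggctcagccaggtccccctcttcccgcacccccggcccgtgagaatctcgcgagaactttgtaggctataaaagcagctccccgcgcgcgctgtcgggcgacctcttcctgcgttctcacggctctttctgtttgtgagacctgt
G6pdx: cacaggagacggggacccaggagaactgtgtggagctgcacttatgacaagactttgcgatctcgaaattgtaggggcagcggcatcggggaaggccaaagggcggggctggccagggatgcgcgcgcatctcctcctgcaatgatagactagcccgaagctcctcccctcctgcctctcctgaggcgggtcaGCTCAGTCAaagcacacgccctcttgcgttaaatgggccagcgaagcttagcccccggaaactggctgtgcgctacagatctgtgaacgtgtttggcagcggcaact
These windows lie at chr3:122245307-122245606 (plus strand), chr2:152105274-152105573 (plus strand), chr10:82858956-82859255 (plus strand), chr4:116685349-116685648 (plus strand) and chrX:74428831-74429130 (minus strand), in that order.

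Between 30573769 and 38173879 reads per library fell on genes, a number read back from the step size of the FPKM values (fragments per kilobase of gene, scaled to the library total). Proximal tubule markers (Lrp2, Slc34a1, Slc5a2, Slc22a6 and Aqp1) were detected in every library, with a summed level of 2629 to 2839 FPKM in GQYS, 2476 to 2796 in IgAN and 2271 to 2994 in WT, as kidney tissue should show. Itgam, the locus of the knock-in, lay at 0.0283 to 0.143 FPKM in GQYS, 0.172 to 0.433 in IgAN and 0.340 to 0.716 in WT and does not report on the human insert. IgAN replicate 1 and WT replicate 1 stood apart. IgAN replicate 1 had 43.8 FPKM of Havcr1, the tubular injury marker KIM-1, against 0.116 to 1.79 in the other 8 libraries, a gene looked at because its values were known. In WT replicate 1 the 13 mitochondrially encoded genes took 18.6% of the reads, against 7.81% to 13.3% in the others.

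All 10 transcripts were detected in every library. Per length, Prdx1 was the most abundant, with a mean of 679 FPKM over the 9 libraries, followed by Gclm (138 FPKM), Sqstm1 (115), Gclc (96.0), Txnrd1 (46.7), Srxn1 (25.3), Nfe2l2 (24.6), Nqo1 (24.0), G6pdx (17.6) and Keap1 (9.89). Prdx1 lay above and Keap1 below all the others in every library, and neighbours in the order between them overlapped in their ranges over the libraries. The lowest read number behind any of these values was 1002 reads, of G6pdx in GQYS replicate 3, and the highest 37791 reads, of Prdx1 in WT replicate 2. All 10 passed the filter of at least 1 FPKM in at least 3 libraries that left 11617 genes for testing. The genes differed widely in how much they varied. The coefficient of variation over the 9 libraries, the SD as a share of the mean, was 49.5% for Srxn1 and 42.1% for Gclc, larger than that of 97.9% and 96.4% of all tested genes. It was 4.17% for Prdx1 and 6.46% for Keap1, larger than that of 0.379% and 4.36% of tested genes. Without IgAN replicate 1 the coefficient was 10.5% for Srxn1 and 28.9% for Gclc.

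**Figure D1:**
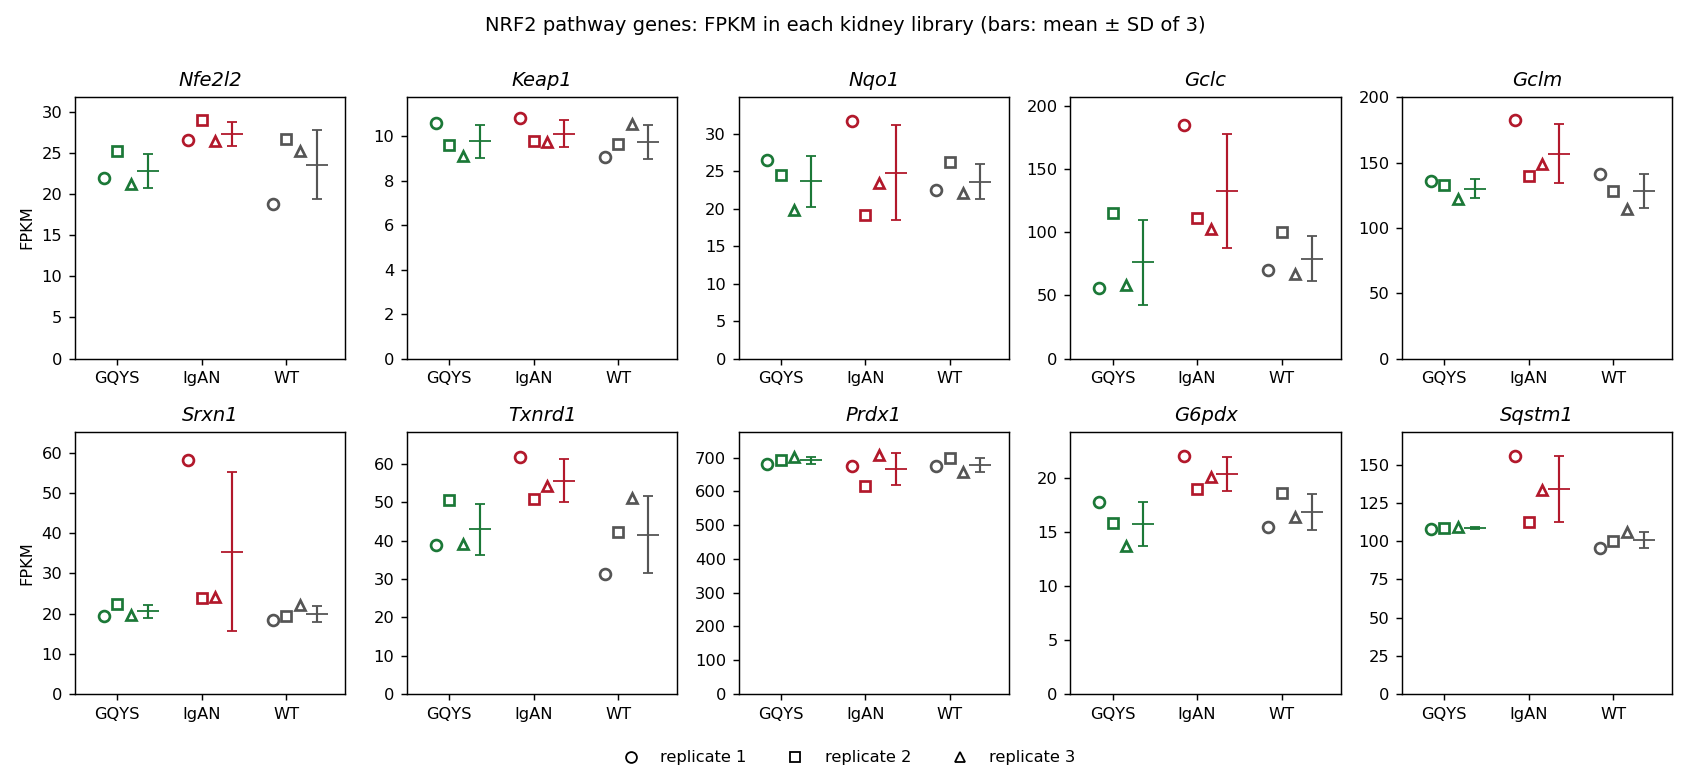
FPKM of the 10 genes (vertical axes from 0) in the GQYS, IgAN and WT libraries; symbols mark replicates 1 to 3 and bars give the mean and SD of 3 libraries. IgAN replicate 1, the red circle, is the highest library for 8 of the 10 genes and stands far above the rest for Srxn1 and Gclc, whereas Prdx1 and Keap1 are nearly level.

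Whether the pathway differs with the granules was asked by comparing GQYS with IgAN, and whether it differs in the disease model by comparing IgAN with WT. None of the 10 genes passed the threshold in GQYS against IgAN, where 0.198% of the 11617 tested genes did (limma on log2(FPKM + 1), Benjamini-Hochberg adjusted p below 0.05). None passed in IgAN against WT, where 0.353% of all tested genes did, and none in GQYS against WT, where the share was 0%. At an unadjusted p below 0.05, 4 of the 10 were lower in GQYS than in IgAN, as were 4.9% of all tested genes, and 5 were higher in IgAN than in WT, as were 6.97%. These counts changed when single libraries were left out. Without IgAN replicate 1 they were 0 and 1, and without GQYS replicate 3 they were 0 and 3. Without WT replicate 1 they were 7 and 2. All tested genes at that p, in either direction, numbered 1211 and 1202 with all libraries. They numbered 847 and 916, 693 and 1053, and 1631 and 2301 in the same order of settings. Leaving out a library of the group not compared changes no difference, only its test. In GQYS against WT, 0 of the 10 and 4.43% of all tested genes had an unadjusted p below 0.05. With library quality weights it was 3 of the 10 and 2892 of the 11617 tested genes. Most of the 10 were nevertheless measured at higher levels in IgAN than in the other groups. In GQYS against IgAN the log2 difference was negative for 9 of 10 genes, with a median of -0.27 against 0.0064 over all tested genes, and for 6 genes every GQYS library lay below every IgAN library, as was so for 9.29% of all tested genes. In IgAN against WT the difference was positive for 9 of 10, with a median of 0.27 against 0.021, and for 4 genes every IgAN library lay above every WT library, as for 9.18% of all tested genes. Both comparisons use the same IgAN libraries, so the opposite signs are not independent of each other. In GQYS against WT, 6 differences were positive and 4 negative, with a median of 0.014 against 0.029, and Sqstm1 alone had ranges apart, as had 7.14% of all tested genes in the higher direction. In whole kidney, more RNA per cell and more cells of a type that holds the RNA cannot be told apart.

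IgAN replicate 1 accounted for part of these differences. It was the highest of the 9 libraries for 8 genes, all but Nfe2l2 and Prdx1, and WT replicate 1 was the lowest for 5, namely Nfe2l2, Keap1, Srxn1, Txnrd1 and Sqstm1. Without IgAN replicate 1 the median log2 difference of the 10 genes was -0.20 in GQYS against IgAN and 0.22 in IgAN against WT, and the lowest limma adjusted p was 0.699 and 0.569. Without it the sign turned for Nqo1 in both comparisons and for no other of the 10 genes. Without WT replicate 1 the medians were -0.27 and 0.23, and -0.039 in GQYS against WT. Without both of these libraries they were -0.20, 0.16 and -0.039 in the same order. The result of no call among the 10 held without each library in turn in every comparison.

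**Figure D2:**
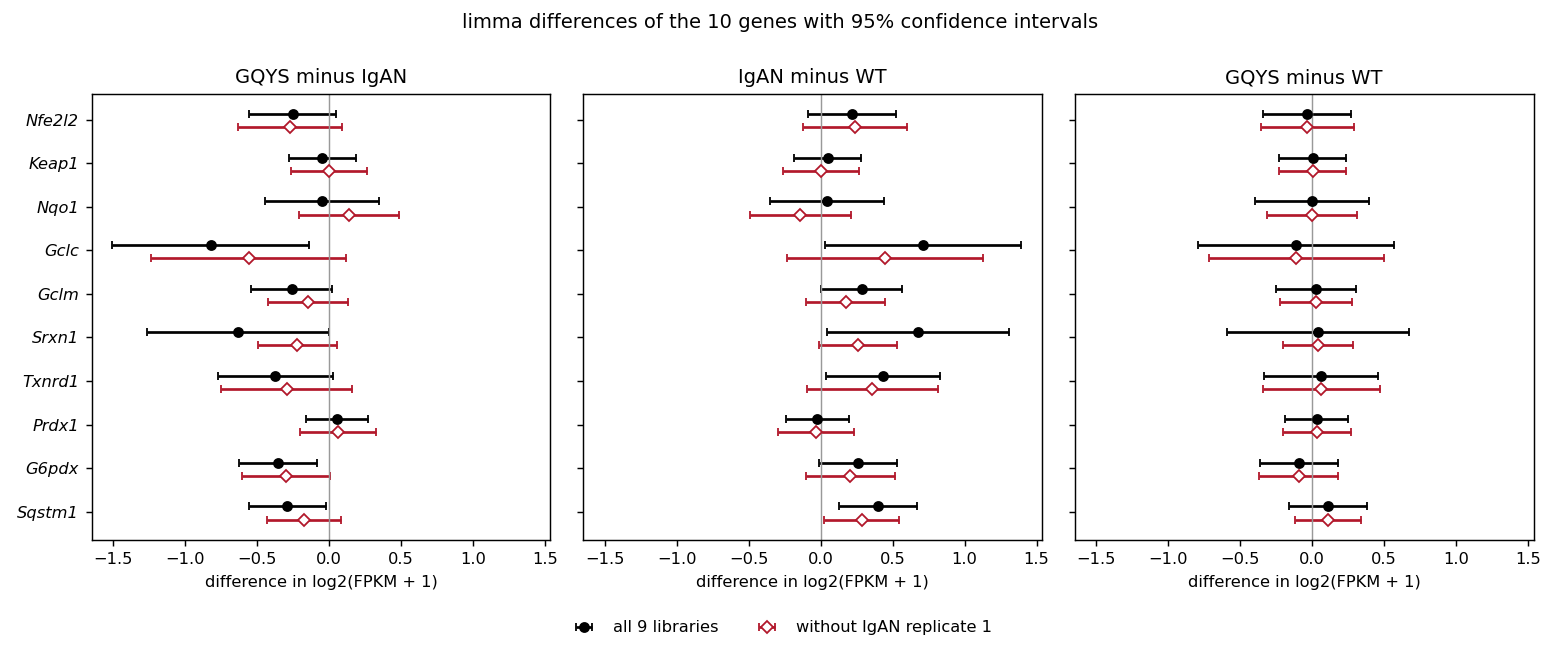
Differences in log2(FPKM + 1) of the 10 genes in the 3 comparisons (horizontal axis), with 95% confidence intervals from limma, for all 9 libraries (black circles) and without IgAN replicate 1 (red diamonds). The points of Gclc and Srxn1 lie farthest from 0 in the first and second panels and move toward 0 without that library; in the third panel the black points run from -0.11 for Gclc to 0.11 for Sqstm1.

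Nfe2l2, which encodes NRF2 itself, was at 22.0, 25.2 and 21.3 FPKM in GQYS replicates 1 to 3, 26.6, 29.0 and 26.4 FPKM in IgAN and 18.8, 26.7 and 25.3 FPKM in WT. All 3 GQYS libraries lay below all 3 IgAN libraries, while the WT values ran from the lowest of all, in WT replicate 1, into the IgAN range. The log2 difference was -0.25 ± 0.14 (SE; 95% confidence interval -0.56 to 0.051; limma adjusted p = 0.596) in GQYS against IgAN and 0.22 ± 0.14 (SE; 95% confidence interval -0.086 to 0.52; limma adjusted p = 0.642) in IgAN against WT. Without WT replicate 1 the IgAN against WT difference was 0.069, without both replicate 1 libraries 0.088 and with library quality weights, which give less weight to libraries far from their group, 0.054. Keap1, the repressor, was at 10.6, 9.62 and 9.13 FPKM in GQYS replicates 1 to 3, 10.8, 9.79 and 9.76 FPKM in IgAN and 9.05, 9.64 and 10.6 FPKM in WT. Its groups overlapped throughout, and its difference was -0.046 ± 0.10 (SE; 95% confidence interval -0.28 to 0.18; limma adjusted p = 0.960) in GQYS against IgAN and 0.049 ± 0.10 (SE; 95% confidence interval -0.18 to 0.28; limma adjusted p = 0.936) in IgAN against WT. The ratio of Nfe2l2 to Keap1 FPKM within a library was 2.34 ± 0.273 in GQYS, 2.71 ± 0.253 in IgAN and 2.42 ± 0.347 in WT (SD, n = 3 each), with overlapping ranges. Exons of Keap1 overlap those of an annotated antisense transcript, and it is not stated whether the counting used strand.

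Gclc and Gclm encode the catalytic and the modifier subunit of glutamate-cysteine ligase, the rate-limiting enzyme of glutathione synthesis. Gclc was at 55.7, 115 and 58.1 FPKM in GQYS replicates 1 to 3, 185, 111 and 102 FPKM in IgAN and 70.4, 99.8 and 67.2 FPKM in WT. Every IgAN library lay above every WT library, but GQYS replicate 2 lay inside the IgAN range while the other GQYS libraries lay below all others. Gclc had the largest differences of the 10 genes and also wide intervals. They were -0.82 ± 0.31 (SE; 95% confidence interval -1.50 to -0.14; limma adjusted p = 0.377) in GQYS against IgAN and 0.71 ± 0.31 (SE; 95% confidence interval 0.029 to 1.39; limma adjusted p = 0.451) in IgAN against WT. Without IgAN replicate 1 they were -0.56 and 0.45. Gclm was at 136, 133 and 122 FPKM in GQYS replicates 1 to 3, 182, 139.6 and 149 FPKM in IgAN and 141, 129 and 115 FPKM in WT. Its GQYS libraries lay below its IgAN libraries by a narrow margin, and WT replicate 1 lay inside the IgAN range. The differences were -0.26 ± 0.13 (SE; 95% confidence interval -0.54 to 0.021; limma adjusted p = 0.538) and 0.29 ± 0.13 (SE; 95% confidence interval 0.0047 to 0.57; limma adjusted p = 0.469) in the same comparisons, and without IgAN replicate 1 they were -0.15 and 0.17. Exons of Gclm overlap those of a pseudogene on the same strand and of a transcript on the opposite one, which could share its reads.

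The subunits were not in a fixed proportion across libraries. The ratio of Gclc to Gclm FPKM within a library was 0.411, 0.866 and 0.476 in GQYS replicates 1 to 3, 1.01, 0.795 and 0.688 in IgAN and 0.499, 0.776 and 0.585 in WT. In each group the ratio was spread over a wide range, and the groups overlapped. A ratio within a library does not depend on the library's total.

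**Figure D3:**
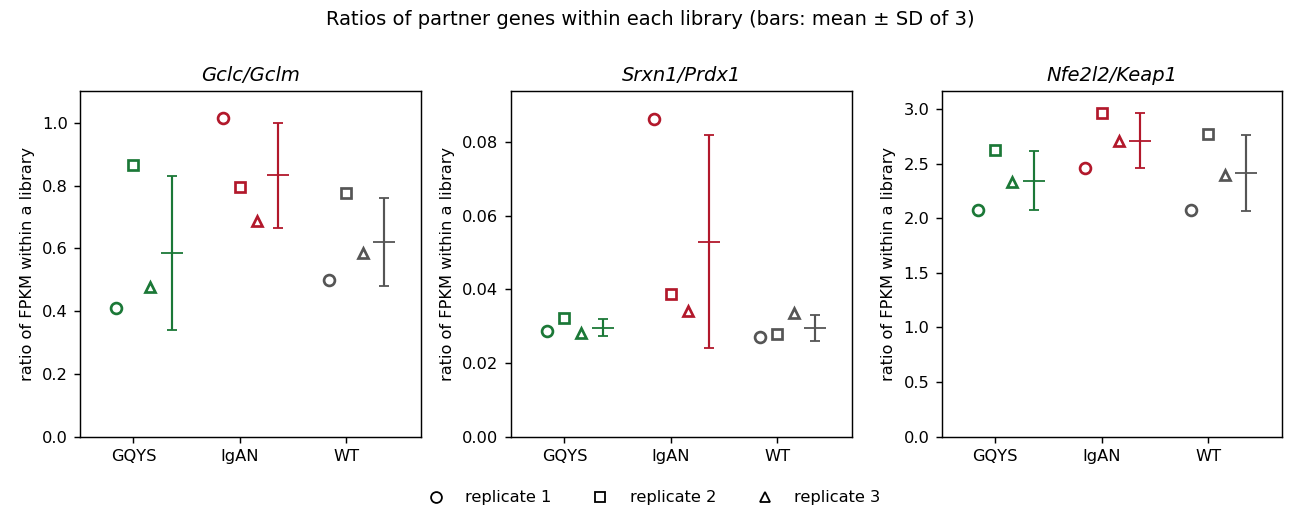
Ratios of FPKM of partner genes within a library (vertical axes from 0) for Gclc to Gclm, Srxn1 to Prdx1 and Nfe2l2 to Keap1, by group, with replicates as symbols and bars for the mean and SD of 3 libraries. IgAN replicate 1 has the highest ratio for the first and second pair, and GQYS replicate 2 lies apart from the other GQYS libraries for Gclc to Gclm.

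In the thioredoxin branch, Srxn1 encodes sulfiredoxin, which repairs overoxidized peroxiredoxins. It was at 19.5, 22.4 and 19.7 FPKM in GQYS replicates 1 to 3, 58.2, 23.8 and 24.2 FPKM in IgAN and 18.3, 19.4 and 22.0 FPKM in WT. IgAN replicate 1 held 2.41 times the level of the next library, and the other IgAN libraries lay just above all GQYS and WT libraries. The differences were -0.63 ± 0.28 (SE; 95% confidence interval -1.27 to -0.0018; limma adjusted p = 0.477) in GQYS against IgAN and 0.68 ± 0.28 (SE; 95% confidence interval 0.043 to 1.31; limma adjusted p = 0.432) in IgAN against WT. Without IgAN replicate 1 they were -0.22 (adjusted p = 0.788) and 0.26 (adjusted p = 0.656), so that 1 library set most of their size. Prdx1, a peroxiredoxin that reduces hydrogen peroxide and is a substrate of sulfiredoxin, was at 681, 694 and 702 FPKM in GQYS replicates 1 to 3, 675, 617 and 709 FPKM in IgAN and 676, 699 and 658 FPKM in WT. Its groups overlapped, the differences were 0.056 ± 0.098 (SE; 95% confidence interval -0.16 to 0.27; limma adjusted p = 0.936) and -0.024 ± 0.098 (SE; 95% confidence interval -0.24 to 0.19; limma adjusted p = 0.967), and IgAN replicate 1 was not raised. The ratio of Srxn1 to Prdx1 within a library was 0.0863 in IgAN replicate 1 and at most 0.0387 in the other 8 libraries. Txnrd1, the cytosolic thioredoxin reductase, was at 38.9, 50.6 and 39.3 FPKM in GQYS replicates 1 to 3, 61.8, 50.9 and 54.2 FPKM in IgAN and 31.3, 42.2 and 51.2 FPKM in WT. GQYS replicate 2 came close to the lowest IgAN library, and WT replicate 3 lay inside the IgAN range. The differences were -0.37 ± 0.18 (SE; 95% confidence interval -0.77 to 0.025; limma adjusted p = 0.528) and 0.43 ± 0.18 (SE; 95% confidence interval 0.038 to 0.83; limma adjusted p = 0.414). Without WT replicate 1, the lowest library for this gene, the difference in IgAN against WT was 0.25.

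The genes of quinone and NADPH metabolism had unlike patterns. Nqo1 encodes the quinone reductase NQO1, a classical NRF2 target. It was at 26.5, 24.5 and 19.9 FPKM in GQYS replicates 1 to 3, 31.7, 19.2 and 23.4 FPKM in IgAN and 22.5, 26.2 and 22.0 FPKM in WT. The groups overlapped, and IgAN held both the highest and the lowest library. The differences were -0.047 ± 0.18 (SE; 95% confidence interval -0.44 to 0.35; limma adjusted p = 0.984) and 0.044 ± 0.18 (SE; 95% confidence interval -0.35 to 0.44; limma adjusted p = 0.967), and their direction turned to 0.14 and -0.14 without IgAN replicate 1. G6pdx encodes glucose-6-phosphate dehydrogenase, the entry enzyme of the pentose phosphate pathway, which makes NADPH. It was at 17.7, 15.8 and 13.7 FPKM in GQYS replicates 1 to 3, 22.0, 18.9 and 20.1 FPKM in IgAN and 15.5, 18.6 and 16.4 FPKM in WT. All IgAN libraries lay above all GQYS and all WT libraries. The differences were -0.35 ± 0.12 (SE; 95% confidence interval -0.63 to -0.083; limma adjusted p = 0.337) and 0.26 ± 0.12 (SE; 95% confidence interval -0.010 to 0.53; limma adjusted p = 0.510), and without IgAN replicate 1 they were -0.30 and 0.21. The copy G6pd2 was listed at 0 in all 9 libraries. Exons of G6pdx overlap those of Ikbkg on the opposite strand, which reached at most 5.00 FPKM, and reads of the pair cannot be told apart without strand.

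Sqstm1 encodes p62, a selective autophagy receptor that binds KEAP1 and is itself a target of NRF2. It was at 108, 109 and 109 FPKM in GQYS replicates 1 to 3, 156, 113 and 134 FPKM in IgAN and 95.6, 100.3 and 106 FPKM in WT. The 3 groups did not overlap, with GQYS between WT below and IgAN above, and the GQYS libraries were close together. In IgAN against WT the difference was 0.40 ± 0.12 (SE; 95% confidence interval 0.13 to 0.67; limma adjusted p = 0.244), which ranked 379 by unadjusted p among the 11617 tested genes. In GQYS against IgAN it was -0.29 ± 0.12 (SE; 95% confidence interval -0.56 to -0.020; limma adjusted p = 0.442) and in GQYS against WT 0.11 ± 0.12 (SE; 95% confidence interval -0.16 to 0.38; limma adjusted p = 0.999). Without IgAN replicate 1 these were 0.29, -0.18 and 0.11. With library quality weights Sqstm1 was the 1 gene of the 10 to pass in IgAN against WT (adjusted p = 0.0389), but that setting passed 655 of all tested genes instead of 41. Over all alternatives its adjusted p in this comparison ran from 0.0389 to 0.569. Exons of Sqstm1 overlap those of Mrnip on the opposite strand, which reached at most 9.78 FPKM.

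A 2-sided exact permutation test of single genes gave p = 0.1 for Nfe2l2, Gclm, Srxn1, Txnrd1, G6pdx and Sqstm1 in GQYS against IgAN, for Gclc, Srxn1, G6pdx and Sqstm1 in IgAN against WT and for Sqstm1 in GQYS against WT, which with 3 libraries on each side is the lowest p possible. In GQYS against WT the log2 differences of the 10 genes ran from -0.11 for Gclc to 0.11 for Sqstm1, all with a limma adjusted p of 0.999. The 95% confidence intervals still allowed changes of some size: that of Nqo1 ran from -0.40 to 0.39 and that of Gclc from -0.79 to 0.57, so the absence of a call does not show that the granule-fed and wild-type kidneys were alike.

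Neutrophil markers were higher in the IgAN libraries than in all others. The summed level of 6 neutrophil markers (S100a8, S100a9, Retnlg, Csf3r, Cxcr2 and Ly6g) was 2.50 to 3.44 FPKM in GQYS, 27.2 to 34.1 in IgAN and 1.24 to 3.68 in WT. Ly6g was at 0 in all GQYS and WT libraries. Of the 6, 3 were tested. All 3 passed in GQYS against IgAN and in IgAN against WT, where 0.198% and 0.353% of all tested genes did. With such low sums in GQYS and WT, the 3 may have met the filter only through IgAN, the group in which they were then called higher. The summed level of 6 macrophage markers was 43.4 to 50.3 FPKM in GQYS, 58.9 to 86.0 in IgAN and 33.1 to 67.7 in WT, none of the 6 passed, and IgAN replicate 1 was the highest library. Of 4 mesangial and fibroblast markers, which summed to 45.5 FPKM in IgAN replicate 1 and 15.3 to 24.4 in the other 8 libraries, none passed either. The 3 endothelial markers (Pecam1, Kdr and Emcn) summed to 74.9 to 82.3 FPKM in GQYS, 54.6 to 64.4 in IgAN and 61.3 to 72.0 in WT. None of the 3 passed, and their median log2 difference in GQYS against IgAN was 0.36. The 3 liver markers (Alb, Apoa1 and Ttr) summed to 40.0 to 92.8 FPKM in GQYS, 56.3 to 88.6 in IgAN and 96.3 to 115 in WT, and none passed. The part of any of these cells in the levels of the 10 genes was not tested.

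The wider pathway was read through lists of other genes. The genes named from each list are those with the smallest unadjusted p over the 3 comparisons. Ranges apart among the named genes follow in part from that choice. Of 38 other known NRF2 targets 30 were tested, and none passed in any comparison. Their median log2 difference was -0.046 in GQYS against IgAN and 0.014 in IgAN against WT, where the medians of all tested genes were 0.0064 and 0.021. The difference was positive for 11 and 16 of the 30 in these comparisons, and for 51.6% and 54.7% of all tested genes. In GQYS against IgAN 0 of the 30 had GQYS libraries below all IgAN libraries, against 9.29% of all tested genes, and 3 had them above. Hmox1, which encodes the inducible heme oxygenase, was at 30.5, 43.8 and 28.6 FPKM in GQYS replicates 1 to 3, 60.4, 36.4 and 48.1 FPKM in IgAN and 29.7, 25.8 and 28.2 FPKM in WT. All IgAN libraries lay above all WT libraries, with a log2 difference of 0.74 ± 0.20 (SE; limma adjusted p = 0.180). Mgst1, a microsomal glutathione transferase, differed by -0.27 in IgAN against WT with ranges apart, and the transferases Gsta2 and Gstm1, which have close paralogs that could share their reads, by -0.51 and -0.14 with overlapping ranges (limma adjusted p of 0.362, 0.401 and 0.835).

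Among 16 tested regulators of NRF2, 1 passed, Maff, a small MAF protein that can pair with NRF2. Maff was at 0.809, 1.12 and 0.747 FPKM in GQYS replicates 1 to 3, 4.65, 1.95 and 3.003 FPKM in IgAN and 0.674, 0.310 and 0.192 FPKM in WT. Maff met the filter of at least 1 FPKM in at least 3 libraries only through IgAN, the group in which it was then called higher. All IgAN libraries lay above all others, and the difference was 1.56 ± 0.22 on the log2 scale in IgAN against WT (SE, limma adjusted p = 0.0218). That call ended without IgAN replicate 3, WT replicate 2 and WT replicate 3 in turn (adjusted p = 0.106, 0.0947 and 0.0798), without the filter (0.0884) and with only the IgAN and WT libraries in the fit (0.0972). In GQYS against IgAN its difference was -1.11, with an adjusted p of 0.106. Mafk and Mafg, the other small MAF genes of that list, had IgAN libraries above all WT libraries but did not pass (log2 differences of 0.38 and 0.25; limma adjusted p of 0.153 and 0.396). Syvn1, a ubiquitin ligase of the endoplasmic reticulum that can act on NRF2, was at 17.5, 13.2 and 13.1 FPKM in GQYS replicates 1 to 3, 29.8, 25.6 and 23.6 FPKM in IgAN and 19.3, 9.75 and 12.9 FPKM in WT, and its difference in IgAN against WT was 0.91 (limma adjusted p = 0.140).

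None of 27 other antioxidant enzymes, 16 autophagy partners of p62, 7 further genes of the pentose phosphate pathway and 6 tested subunits of NADPH oxidases passed in any comparison. In IgAN against WT their medians were 0.062, 0.055, 0.11 and 0.18, and in GQYS against IgAN -0.055, -0.035, -0.092 and -0.12. The peroxidase Gpx1 was at 1829, 2043 and 1933 FPKM in GQYS replicates 1 to 3, 2069.8, 1808 and 2221 FPKM in IgAN and 1612, 1721 and 1769 FPKM in WT. Its WT libraries lay below all others, with a difference of 0.25 in IgAN against WT (limma adjusted p = 0.509). Msrb1, a methionine sulfoxide reductase, and Prdx6, a peroxiredoxin, had GQYS libraries below all IgAN libraries, with differences of -0.34 and -0.22 (limma adjusted p of 0.401 and 0.484). Of the 27 enzymes 4 had ranges apart in this direction, as had 9.29% of all tested genes. Txnrd3, another thioredoxin reductase, had IgAN libraries below all WT libraries, unlike Txnrd1, with a difference of -0.36 (limma adjusted p = 0.344).

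Pgd, another NADPH-producing enzyme beside G6pdx and also an NRF2 target, was at 47.0, 47.7 and 45.6 FPKM in GQYS replicates 1 to 3, 67.3, 46.8 and 54.4 FPKM in IgAN and 36.9, 48.7 and 47.4 FPKM in WT. Its highest library was IgAN replicate 1, and the groups overlapped. They also overlapped for H6pd, the counterpart of G6pdx in the endoplasmic reticulum, and for the later enzymes Tkt and Taldo1, whose differences in IgAN against WT were 0.36, 0.15 and 0.049. Of the partners of p62, Gabarapl1, a protein of the autophagosome membrane, was at 482, 648 and 507 FPKM in GQYS replicates 1 to 3, 402, 534 and 557 FPKM in IgAN and 327, 441 and 423 FPKM in WT. All GQYS libraries lay above all WT libraries, with a difference of 0.46 (limma adjusted p = 0.999). The autophagy receptor Calcoco1 had GQYS libraries above all IgAN libraries, with a difference of 0.25 (limma adjusted p = 0.399), and the groups overlapped for the membrane proteins Gabarap and Map1lc3a in every comparison. Nox4, the NADPH oxidase of tubule cells, was at 49.9, 60.6 and 60.5 FPKM in GQYS replicates 1 to 3, 32.5, 43.7 and 50.8 FPKM in IgAN and 43.0, 56.4 and 67.2 FPKM in WT. IgAN replicate 1 was the lowest library, and the groups overlapped. The phagocyte oxidase genes Ncf1 and Rac2 lay between 0.679 and 2.21 FPKM, and Ncf1 had IgAN libraries above all others, with a difference of 0.31 in IgAN against WT (limma adjusted p = 0.312).

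**Figure D4:**
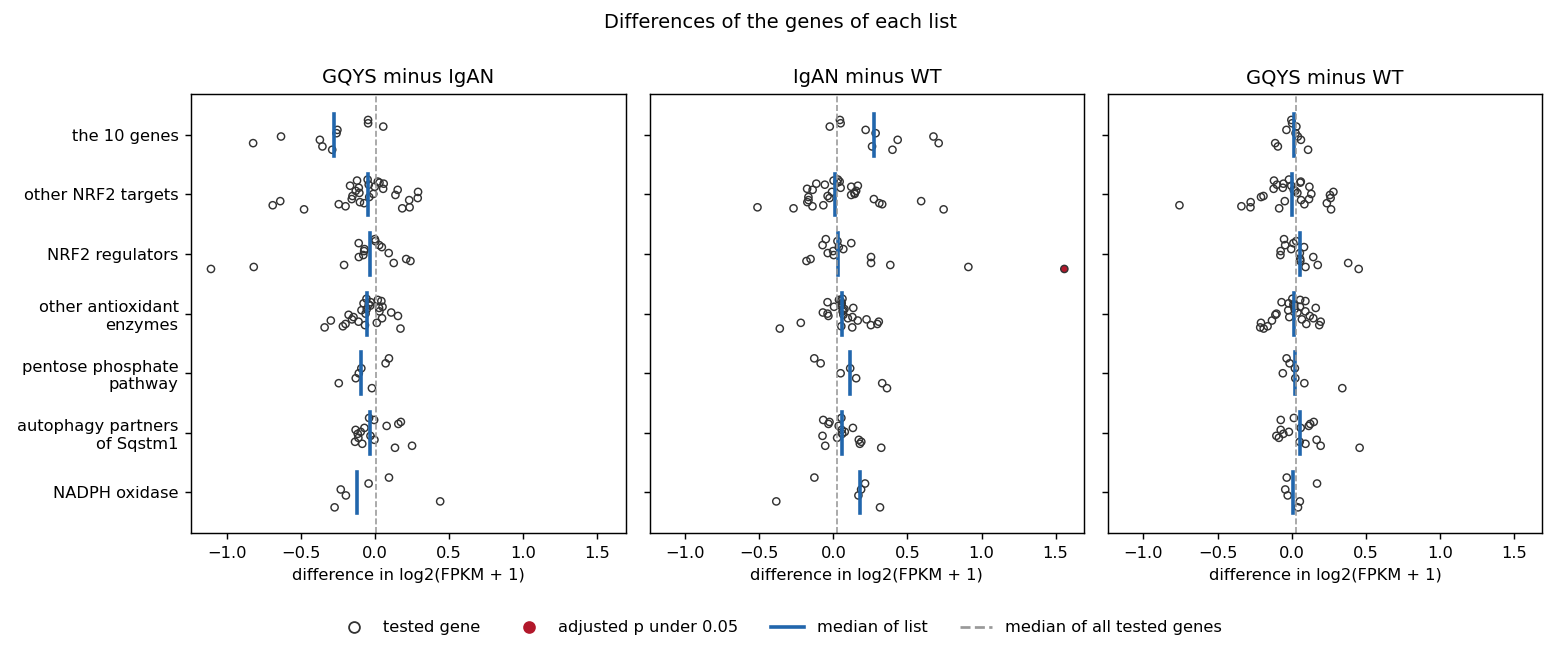
Differences in log2(FPKM + 1) (horizontal axis) of the tested genes of each list in the 3 comparisons; each circle is 1 gene, blue bars are the medians of the lists and the dashed line is the median of all 11617 tested genes. The bar of the 10 genes lies at -0.27 in GQYS minus IgAN and 0.27 in IgAN minus WT, that of the other NRF2 targets near the dashed line, and Maff, the filled circle, is the 1 gene past the threshold.

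The genes whose pattern was most like that of the 8 targets (the 10 genes without Nfe2l2 and Keap1) were found by the root mean square distance between profiles of log2(FPKM + 1) over the 9 libraries, each centred and scaled to an SD of 1. They were Mthfd2, a mitochondrial folate enzyme, Slc25a24, a mitochondrial nucleotide carrier, Parp3, an ADP-ribosyltransferase, Il1r1, the interleukin-1 receptor, and St3gal1, a sialyltransferase, at distances from 0.333 to 0.352. The targets themselves lay at 0.425 (Sqstm1) to 1.10 (Prdx1) from their own mean profile. They were not picked by distance, so these ranges cannot be compared. Mthfd2 was at 1.46, 2.09 and 1.09 FPKM in GQYS replicates 1 to 3, 5.32, 2.12 and 2.25 FPKM in IgAN and 1.15, 1.56 and 1.19 FPKM in WT. All 5 had their highest value in IgAN replicate 1, which largely follows from choosing them by this profile. None of the 5 passed in any comparison.

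**Figure D5:**
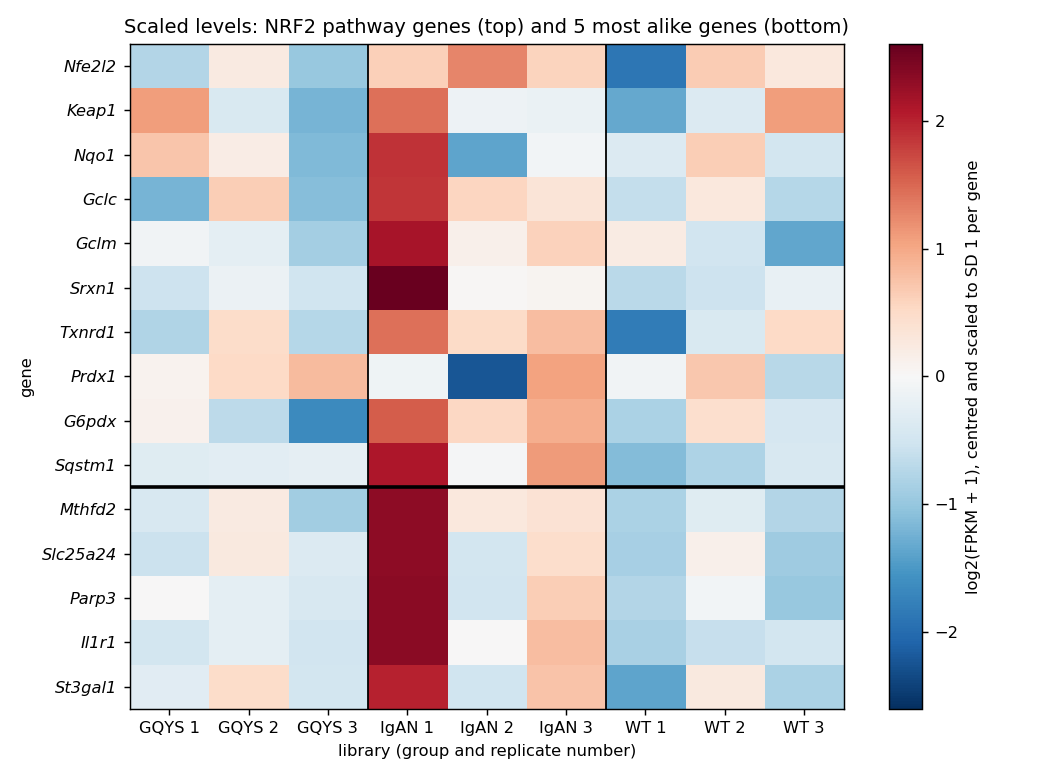
Levels of the 10 genes (top) and of the 5 genes with the most similar profile (bottom) in the 9 libraries, as log2(FPKM + 1) centred and scaled to an SD of 1 per gene; red is above and blue below the gene's mean. The column of IgAN replicate 1 is red for every gene but Prdx1, which lies near its mean there. The bottom 5 genes were chosen by their profile.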

How the data were processed

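Bulk RNA of mouse kidney was measured in 9 libraries, 3 each of GQYS, IgAN and WT, grouped by the labels. The values used are the FPKM deposited by the authors in 1 table of 26139 gene symbols. Per the submitters' processing notes, which state no roles, the tools were HTSeq, HISAT2, fastp, DESeq2 and R 3.2.0 and the build GRCm39. For the annotation and the strand setting, the sources used here give nothing. FPKM values were whole multiples, within 0.03 reads, of a unit read in 21808 of the 21810 genes above 0 in 2 or more libraries. The unit gave the reads per gene and the total of each library, 30589404 to 38192492 reads.

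Genes with at least 1 FPKM in at least 3 libraries (11617) were tested on log2(FPKM + 1) with limma 3.58.1 in R 4.3.3, with a mean-variance trend, group as the only term and all 9 libraries sharing 1 estimate of the spread. This scale understates the change of low genes. P-values were adjusted over all tested genes by the Benjamini-Hochberg method, with a threshold of 0.05. The model was tested on simulated data. Single genes were also compared with 2-sided exact permutation tests. Alternatives were a pseudocount of 0.1, no filter, quantile normalization, a replicate block, only the 2 groups compared, library quality weights, limma's voom on recovered reads with TMM scaling, and leaving out libraries.

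The 10 genes and all lists were chosen with earlier results of these data known. The 10 genes are given in full. Of each other list, the up to 4 tested genes with the smallest unadjusted p over the 3 comparisons are named, except 1 gene that is not reported here, besides the 5 genes with the most similar profile and Havcr1. The alternative fits were also made with limma in R. Summaries, permutation tests and the promoter search used Python 3.11.15, and figures were drawn with matplotlib 3.10.9. Promoter windows came from RefSeq (GRCm38.p6) and no coordinates were converted between builds.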

Additional observations from a re-analysis of the deposited data

How the results depend on the processing

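None of the 10 genes passed in any comparison under any of the 17 alternatives, except that 1, Sqstm1, passed in IgAN against WT with library quality weights. Of 510 alternative values of single genes, 472 kept their direction and side of the threshold and 37 changed sign. The cause was not tested. Several alternatives cannot change a difference, so for part of the 472 the direction was fixed in advance. These are no filter, the replicate block, only the 2 groups compared, and leaving out a library of the group not compared. In GQYS against IgAN the log2 difference of Nqo1 was 0.019 after quantile normalization, 0.14 without both WT and IgAN replicate 1, and -0.21 to 0.14 without single libraries. In IgAN against WT, Keap1 was at -0.043 without both of those libraries, and Nqo1 at -0.11 with quality weights, -0.024 after quantile normalization, -0.17 without both and -0.14 to 0.21 without single libraries, while Prdx1 ran from -0.070 to 0.031. In GQYS against WT, voom gave -0.0061 for Gclm, -0.029 for Keap1 and -0.00080 for Prdx1, quality weights gave -0.024 for Keap1 and -0.10 for Txnrd1, and moved Gclc to -0.51, Nfe2l2 to -0.23 and G6pdx to -0.23, quantile normalization gave -0.026 for Keap1, and without both libraries Keap1 was at -0.045, Srxn1 at -0.014 and Txnrd1 at -0.12. Without single libraries the ranges there were -0.45 to 0.071 for Gclc, -0.050 to 0.10 for Gclm, -0.050 to 0.057 for Keap1, -0.18 to 0.058 for Nfe2l2, -0.087 to 0.11 for Nqo1, -0.020 to 0.11 for Srxn1 and -0.12 to 0.22 for Txnrd1. The number of all tested genes that passed in GQYS against IgAN was 23, and 404 with quality weights, 13 with no filter, 43 with only those groups, 15 with a pseudocount of 0.1, 63 without both libraries and 6 to 54 without single libraries. After quantile normalization 1 gene was higher and 15 lower, against 4 higher and 19 lower as reported. In IgAN against WT it was 41, and 655 with quality weights, 21 with no filter, 11 with only those groups and 14 to 65 without single libraries. In GQYS against WT it was 0, with 515 at an unadjusted p below 0.05, and 53 with quality weights, 0 with voom and 0 to 1 without single libraries. With the replicate number as a block it was 26 in GQYS against IgAN and 68 in IgAN against WT, and none of the 10 genes passed. Same-numbered libraries did not all deviate together (correlations across genes from -0.36 to 0.58), so the numbers are not taken as pairs. The least-covered value of the 10 genes rested on 1002 reads, a floor that does not hold for genes of the other lists.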
